A study of Mus musculus with 11 samples.

Results

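Of 11 mammary tumours from mice carrying the Pik3ca H1047R mutation, 4 had few called copy-number changes. They are tumours 5, 9, 10 and 11, each with under 3% of its autosomal probes inside a called gain or loss, and are called the low-call tumours below. The other 7 (tumours 1, 2, 3, 4, 6, 7 and 8) each had over 7% and are called the high-call tumours. All 11 animals were of a strain labelled Mixed FVBN/Bl6, with 1 tumour per animal, and the labels put all tumours in 1 group. Tumour DNA, labelled with Cy5 and read in red, and liver DNA from the matching animal, labelled with Cy3 and read in green, were hybridised together on Agilent genomic arrays. The livers come from animals of the same genotype. A change that an animal carries in every cell is not seen where tumour and liver are from the same animal. A shared genotype alone would not remove inherited differences between animals of a mixed strain. How the mutation was introduced, the promoter or Cre behind it and the age of the animals are not given in the sources used here, and no label names a treatment.

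Every value below is a log2 ratio of tumour over liver, after subtraction of the median of its array, so 0 means the level of the typical probe. A gain of 1 copy in every cell of a diploid tissue would give 0.58 on an ideal array and a loss of 1 of 2 copies would give -1. A change present in few cells and a smaller change in more cells cannot be told apart in bulk DNA. Pik3ca encodes the catalytic subunit p110 alpha of phosphoinositide 3-kinase, which makes the lipid that recruits the kinase AKT, and the H1047R change lies in its kinase domain and raises its activity. Solid tumours often gain or lose whole chromosomes when chromosomes are shared out unequally at division, and array hybridisation reads such a change as a small offset over all probes of the chromosome.

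The sets were chosen by the called share, so the shares are a description. A call was a segment of at least 10 probes with a mean at least 0.2 above or below 0. The share of autosomal probes in calls was 2.26% in tumour 5, 0% in tumour 9, 0% in tumour 10 and 0.313% in tumour 11. In the high-call tumours it ran from 7.24% in tumour 4 over a median tumour (tumour 2) at 22.0% to 35.4% in tumour 8. Tumour 5 is the nearest inside the rule and tumour 4 the nearest outside it. The rule's name for these tumours, quiet, did not hold for all of them. With calls counted from 0.15 the share was 8.12% in tumour 5 and 6.18% in tumour 9, against 0.0223% in tumour 10 and 1.01% in tumour 11. From 0.1, a height added after the data were seen, it was 11.0% in tumour 5, 17.9% in tumour 9, 0.0663% in tumour 10 and 5.97% in tumour 11. The lowest high-call share, that of tumour 4, was 9.35% from 0.15 and 16.1% from 0.1, the latter below tumour 9. From 0.3 it was 0.151%, below tumour 11 at 0.313%. The division into 2 sets thus depends on the call height. Tumours 5 and 9 thus held long segments between 0.1 and the call height, and tumour 10 held next to none.

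Noise differed between the arrays and bears on each result. The noise SD between neighbouring probes was 0.24 in tumour 5, 0.55 in tumour 9, 0.18 in tumour 10 and 0.51 in tumour 11. In the high-call tumours it ran from 0.13 to 0.28. Tumours 9 and 11 shared slide 2 and its software version with the high-call tumours 4 (0.28) and 7 (0.22). The mean was 0.37 ± 0.19 (SD, n = 4) in the low-call and 0.18 ± 0.05 (SD, n = 7) in the high-call tumours. An exact two-sided permutation test over the 330 divisions of 11 tumours into 4 and 7 gave p = 0.0242, or 0.121 adjusted over 5 measures of array quality. The noise SD was itself taken from autosomal probes, whose ratios defined the sets, so this test is not independent of the rule. The unadjusted exact permutation p was 0.0556 within slides, the smallest that division allows. The adjusted exact permutation p ranged from 0.0833 to 0.639 over the alternatives, and the difference was 0.03 without tumours 9 and 11. Dim spots, those not well above background in one channel or both, made up 12.8% of all spots in tumour 9 and 0.0832% to 3.09% in the other low-call tumours (adjusted exact permutation p = 0.682 for the sets). The other 3 measures, both median signals and the share of outlier spots, did not pass either (adjusted exact permutation p = 0.581 to 0.973). With 1 array per animal, the number of arrays sets the precision of these comparisons, and the spread is that between animals measured on 1 array each.

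**Figure D1:**
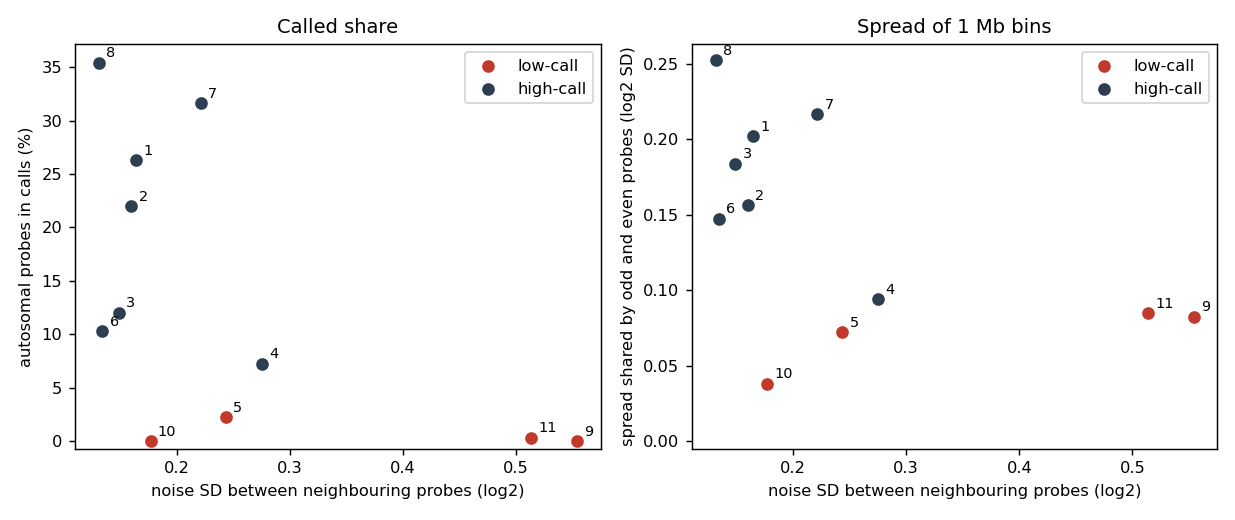
Called share of autosomal probes in percent (left) and spread of 1 Mb bins shared by odd and even probes in log2 units (right), each against the noise SD between neighbouring probes, with 1 point per tumour and its number beside it. Tumours 9 and 11 sit at noise SDs of 0.55 and 0.51 with called shares of 0% and 0.313%, while tumour 10 has a low share at a noise SD of 0.18.

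Probes were averaged in bins of 1 Mb, which gave 2388 autosomal bins with a median of 70 probes. To see how far the bins differed beyond probe noise, each bin was made from odd and from even probes separately, and the covariance of both versions was taken. The SD shared by both was 0.07 in tumour 5, 0.08 in tumour 9, 0.04 in tumour 10 and 0.08 in tumour 11. In the high-call tumours it lay between 0.09 in tumour 4 and 0.25 in tumour 8, so the sets did not overlap in a measure of the same contrast that defined them. The SD that probe noise alone gives a bin was 0.07 in tumour 9 and 0.06 in tumour 11, against 0.03 in tumour 5 and 0.02 in tumour 10. Averaged over a whole autosome, odd and even probes differed by at most 0.01 in tumour 5, 0.02 in tumour 9, 0.005 in tumour 10 and 0.03 in tumour 11. This agreement covers probe noise only, not trends that odd and even probes share along a chromosome. Means before and after the midpoint of an autosome differed by up to 0.05 in tumour 5, 0.04 in tumour 9, 0.05 in tumour 10 and 0.11 in tumour 11.

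An autosome was taken as shifted where the means on both sides of its midpoint lay at least 0.05 from 0 in the same direction. This held for 9 of the 76 autosomes of the low-call tumours (11.8%), with 5 up (6.58%) and 4 down (5.26%), or 4 up and 5 down with the ratios of tumour 11, which ran against several other arrays, turned in sign. In the high-call tumours it held for 59 of 133 autosomes (44.4%), with 31 up (23.3%) and 28 down (21.1%), and in all tumours for 68 of 209 (32.5%). The 9 shifts were 3 in tumour 5, 5 in tumour 9, 0 in tumour 10 and 1 in tumour 11. The count was 22 at a height of 0.03 and 5 at 0.1. Without tumour 9 it was 4, and without tumours 9 and 11 it was 3.

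**Figure D2:**
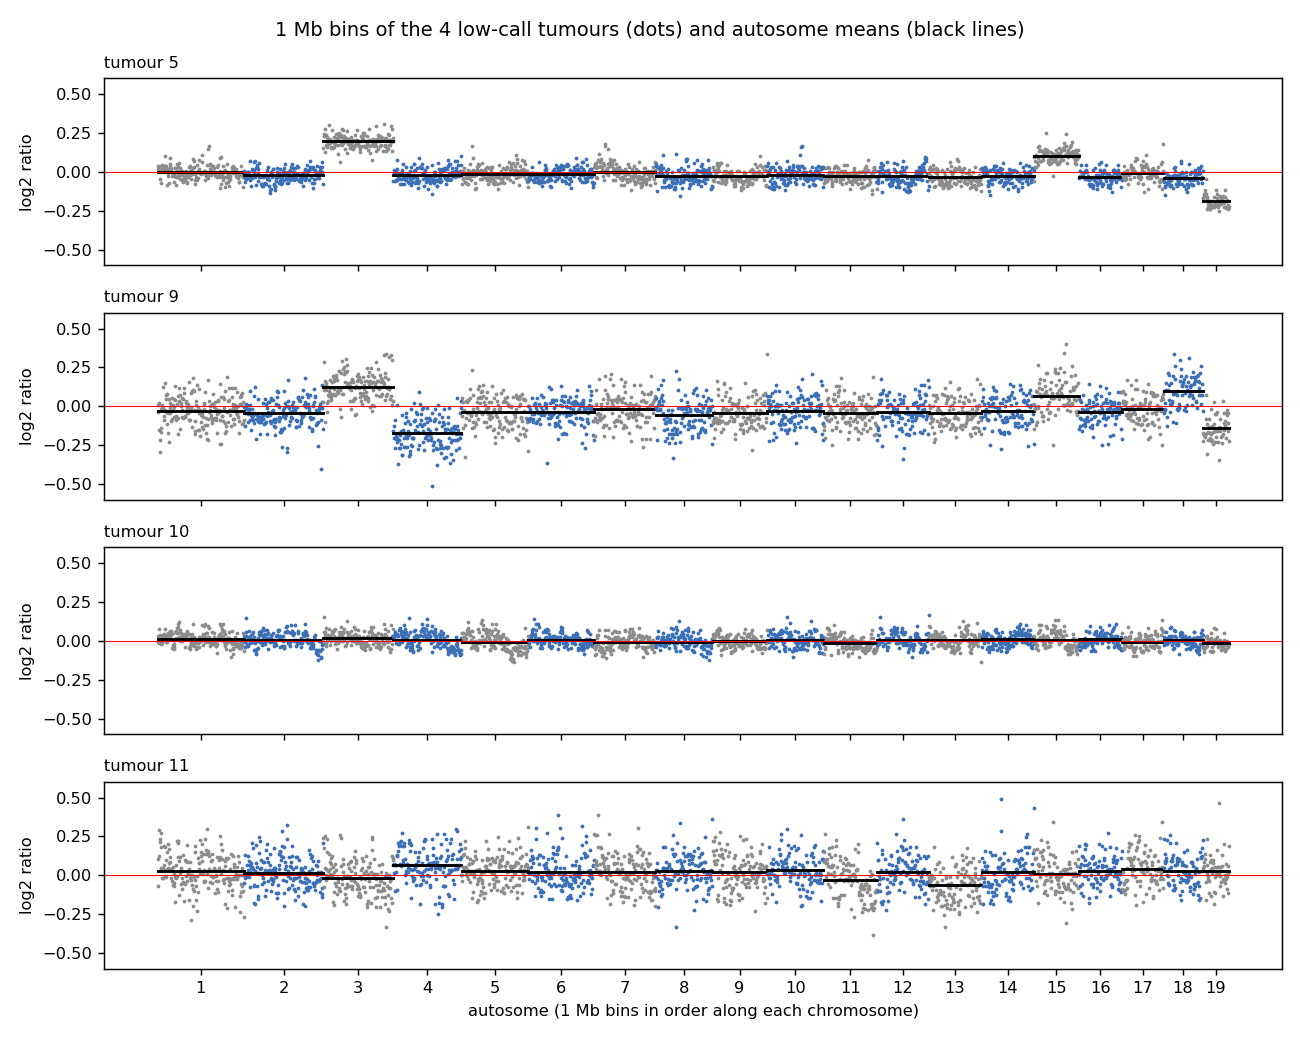
Mean log2 ratio of tumour over liver per 1 Mb bin (dots, alternating colours by autosome) and per autosome (black lines) in the 4 low-call tumours, with the bins in order along each chromosome. Chromosomes 3 and 15 stand above 0 and chromosome 19 below 0 over their whole length in tumour 5, tumour 9 has the same 3 offsets plus chromosomes 4 and 18 amid wider scatter, and tumour 10 is flat.

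Tumour 5 had 3 shifted autosomes. Chromosome 3 had a mean of 0.20 (SD 0.04 over 157 bins), with 0.20 before and 0.19 after the midpoint and 100% of its bins above 0. Segmentation left it as 1 segment with a mean of 0.19, just under the call height. Chromosome 15 had a mean of 0.10 (SD 0.04 over bins) and 98.0% of its bins above 0, and was split into 3 segments. Chromosome 19 had a mean of -0.19 (SD 0.04 over 59 bins) with 0% of its bins above 0. Its segment from 12325758 to 61319646 (3641 probes) reached a mean of -0.20 and was the only call of this tumour. The other 16 autosomes of tumour 5 lay between -0.04 and -0.0001, so the shifted chromosomes stood clear of the rest. All 74 bins of tumour 5 that were at least 0.2 above 0 lay on chromosome 3 (72) or 15 (2), and all 30 bins at least 0.2 below 0 lay on chromosome 19. If each affected cell had 1 extra copy and the remainder 2 copies, 0.20 would correspond to 29.0% of the cells for chromosome 3. In the same way -0.19 would correspond to a loss in 24.7% of the cells for chromosome 19. These fractions take 0 as the level of 2 copies, while the median autosome of tumour 5 lay at -0.02. Relative to it chromosome 3 stood at 0.22 and chromosome 19 at -0.17, which would raise the first fraction and lower the second.

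Tumour 9, the noisiest array, had 5 shifted autosomes. Chromosome 4 was the lowest with a mean of -0.17 (SD 0.10 over 152 bins), and 95.4% of its bins lay below 0. Chromosome 19 had a mean of -0.14 (SD 0.08 over 59 bins), with 94.9% of its bins below 0. Chromosome 3 had a mean of 0.13 (SD 0.08 over 157 bins), with 94.3% of its bins above 0. Segmentation left each of these 3 chromosomes as 1 segment from the first to the last probe. It did so for 17 of the 19 autosomes of this array, shifted or not, against 2 in tumour 10. The cost of a further segment grows with the noise, so an unbroken chromosome says little in this array. Chromosome 18 had a mean of 0.10 (SD 0.10 over 88 bins), with 0.08 before and 0.11 after the midpoint, and was split into 2 segments. Chromosome 8 had a mean of -0.06 (SD 0.10 over 126 bins), was split into 3 segments and was the smallest shift of the 5. Chromosome 15 missed the rule by a narrow margin, with 0.049 before and 0.088 after the midpoint. The other 13 autosomes of tumour 9 lay between -0.05 and -0.01, all below 0, and the median of its autosome means was -0.04. Relative to that median chromosome 3 stood at 0.16, chromosome 18 at 0.13, chromosome 15 at 0.11, chromosome 19 at -0.10, chromosome 4 at -0.13 and chromosome 8 at only -0.02.

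Tumour 10, whose noise was within the range of the high-call tumours, had no shifted autosome. Its autosome means ran from -0.01 to 0.02, with an SD of 0.009 over the 19 autosomes, and 0 of 2388 bins reached 0.2 in either direction. Bins at least 0.1 above 0 made up 1.88% and those at least 0.1 below 0 made up 0.754%. Tumour 11 had a mean of 0.06 on chromosome 4 (SD 0.11 over 152 bins, 75.7% of bins above 0) as its one shift, and its other autosomes lay between -0.06 and 0.04. Its lowest autosome was chromosome 13 at -0.06. Bins at least 0.1 from 0 were frequent in both noisy arrays wherever they lay, with 12.2% up and 24.2% down for tumour 9, 21.2% up and 13.5% down for tumour 11, against 9.59% up and 5.07% down in tumour 5.

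**Figure D3:**
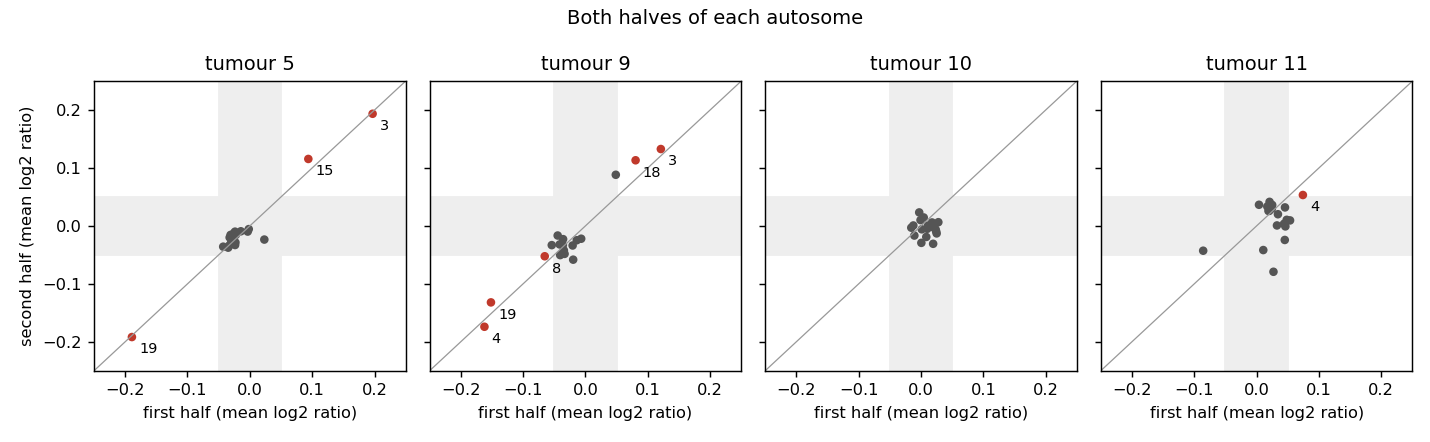
Mean log2 ratio before (x axis) and after (y axis) the midpoint of each autosome in the 4 low-call tumours, with 1 point per autosome, grey bands from -0.05 to 0.05, and shifted autosomes in red with their number. The points of tumours 5 and 9 spread along the diagonal, over -0.19 to 0.20 in tumour 5 and over -0.17 to 0.13 in tumour 9, while those of tumour 10 stay inside the bands.

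The shifts of tumours 5 and 9 were read under 7 other treatments of the signals. All 3 shifts of tumour 5 met the rule in each of them, with ranges of 0.19 to 0.26 for chromosome 3, 0.10 to 0.15 for chromosome 15 and -0.21 to -0.18 for chromosome 19. In tumour 9 chromosomes 3, 4, 18 and 19 met it in each. Their ranges were 0.12 to 0.17 for chromosome 3, -0.17 to -0.11 for chromosome 4, 0.10 to 0.13 for chromosome 18 and -0.14 to -0.08 for chromosome 19, the last value being that without dim spots. Of all 8 treatments, chromosome 8 of tumour 9 met the rule in 4 and chromosome 15 in 6. Chromosome 4 of tumour 11 lost its shift with centring on the mode, normexp and the removal of dim spots. Chromosome 13 of that tumour met the rule downwards in these 3 instead, and under normexp its chromosome 3 did so too, at -0.08.

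The arrays also shared a pattern within chromosomes, seen from probe to probe and, in some pairs of arrays, in 1 Mb bins. After subtraction of chromosome means, the probes of tumours 5 and 9 correlated at r = 0.75, and those of the high-call tumour 4 with tumour 5 at 0.71 and with tumour 9 at 0.79. Tumour 11 ran against them, with r = -0.63 with tumour 5, -0.65 with tumour 9 and -0.62 with tumour 4. These are correlations over probes, which share their sequence and base composition across arrays and are not independent replicates. The pattern remained in part in 1 Mb bins, with chromosome means over bins subtracted. There r was 0.54 for tumours 5 and 9, 0.75 for 4 and 9, and 0.27 for 4 and 5. For tumour 11 it was -0.28 with tumour 5, -0.68 with tumour 9 and -0.67 with tumour 4. The slope of the ratio on probe GC content, per 10 percentage points of GC, was 0.29 in tumour 5, 0.55 in tumour 9, 0.10 in tumour 10, -0.36 in tumour 11 and 0.32 in tumour 4. The labels give tumour 11 the same dyes as the other arrays, so its direction was kept as labelled. Turning its ratios changes the sign of every value given for tumour 11, and several counts, means and tests that this changes are given in both directions. With the pattern of tumour 11 fitted and removed from the others, a treatment added after the data were seen, chromosome 3 stood at 0.19 in tumour 5 and 0.12 in tumour 9, and chromosome 19 at -0.18 and -0.12. With the probe GC fit removed chromosome 3 stood at 0.20 and 0.13, and chromosome 19 at -0.19 and -0.14. Tumour 10 carried the pattern too at probe level, with r = 0.43 with tumour 5 (0.11 over bins), at a chromosome 3 mean of 0.02.

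The high-call tumours serve as the comparison for the same chromosomes, given as values only, because the sets were defined by the same ratios. On chromosome 3 the low-call tumours read 0.20 (tumour 5), 0.13 (9), 0.02 (10) and -0.02 (11), with a mean of 0.08 ± 0.10 (SD, n = 4). The high-call tumours ran from 0.15 over a median of 0.23 to 0.40, with a mean of 0.26 ± 0.10 (SD, n = 7). Tumour 5 lay within that range and tumours 9, 10 and 11 below it. On chromosome 15 the low-call tumours read 0.10, 0.07, 0.007 and 0.01 in the same order, and the high-call tumours ran from 0.06 over a median of 0.22 to 0.32. Tumours 5 and 9 again lay inside the high-call range and tumours 10 and 11 below it.

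Chromosome 19 went another way. The low-call tumours read -0.19, -0.14, -0.01 and 0.03, and the high-call tumours ran from -0.14 over a median of 0.02 to 0.15. The lowest high-call value was that of tumour 4. The shifted autosomes of tumour 4 were chromosomes 3 (0.23), 15 (0.08) and 19 (-0.14), the same 3 as in tumour 5, and its autosome means correlated with those of tumour 5 at r = 0.92 over 19 autosomes and with those of tumour 9 at 0.74. Tumour 5 lies on another slide than tumours 4 and 9. Tumours 4, 5 and 9 are also the 3 arrays with the steepest positive GC slopes and the strongest shared probe pattern, and what part that has in their shared offsets was not tested beyond the fits above.

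Chromosome 4 was lowest in tumour 9 among the low-call tumours, which read -0.02, -0.17, 0.006 and 0.06. With tumour 11 turned its value of -0.06 would be a downward shift too. The high-call tumours ran from -0.03 to 0.12, so tumour 9 was the lowest of the 11. Chromosome 18 read -0.04, 0.10, 0.002 and 0.03 in the low-call tumours, against -0.12 to 0.15 in the high-call ones. Without tumour 9 the mean of the low-call tumours went from -0.03 to 0.02 for chromosome 4 and from 0.02 to -0.002 for chromosome 18. With tumour 11 turned it went from -0.06 to -0.03 and from 0.008 to -0.02, so the sign change on chromosome 4 also rests on the direction of tumour 11.

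Chromosome 7 was the only autosome on which the sets did not overlap (1 of 19, 5.26%). The low-call tumours read -0.0001 in tumour 5, -0.02 in tumour 9, -0.009 in tumour 10 and 0.02 in tumour 11. The high-call tumours ran from -0.37 over a median of -0.16 to -0.03, the last in tumour 4. None of the low-call tumours thus had the lower chromosome 7 seen in 6 of the 7 high-call tumours at -0.13 or below, but the gap between tumours 4 and 9 was under 0.01. With normexp the sets overlapped, with tumour 11 at -0.03 and tumour 4 at 0.0007. Of the 2388 bins of 1 Mb, 49 did not overlap between the sets (2.05%), of which 33 lay on chromosome 7, 7 on chromosome 15 and 6 on chromosome 3.

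**Figure D4:**
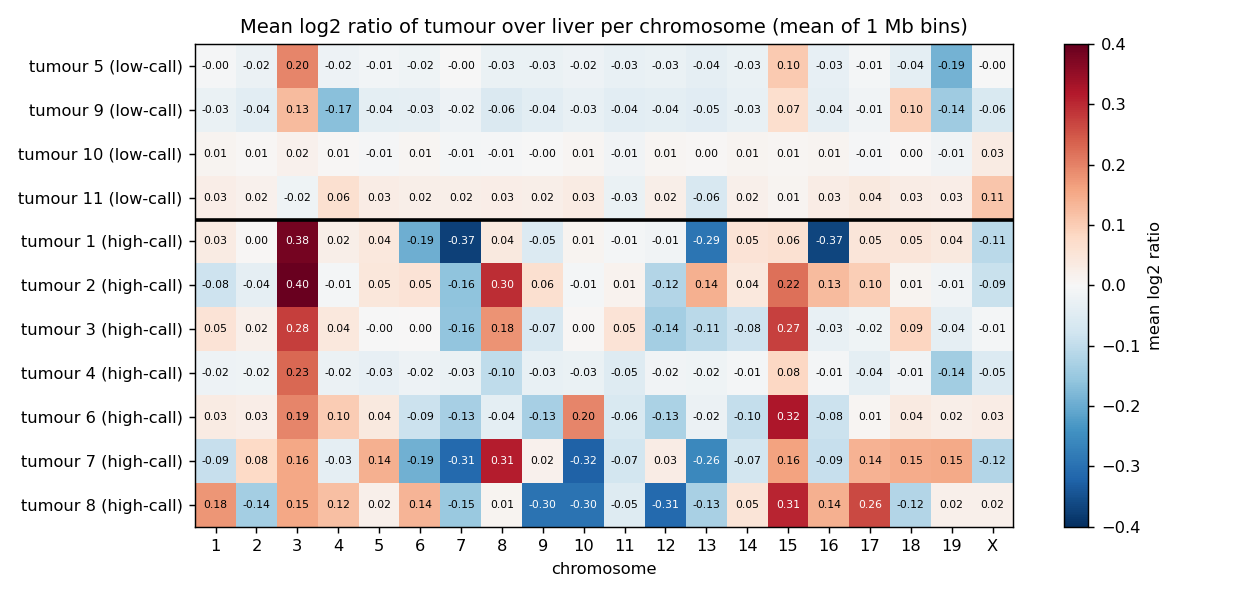
Mean log2 ratio per chromosome (columns, mean of 1 Mb bins) in each tumour (rows), with the 4 low-call tumours above the line and the 7 high-call tumours below it, red for above and blue for below 0. Tumours 4, 5 and 9 share raised chromosomes 3 and 15 and a lowered chromosome 19, and the row of tumour 10 stays near 0 on every autosome.

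The likeness of each low-call tumour to the high-call set is a description over 19 autosomes measured on the same probes. The autosome means of tumour 5 correlated with the mean profile of the high-call tumours at r = 0.59, those of tumour 9 at 0.46, of tumour 10 at 0.26 and of tumour 11 at 0.009. Without chromosomes 3 and 15 the values were -0.11, -0.09, -0.09 and 0.37. With tumour 11 turned its own values were -0.009 and -0.37. The likeness of tumours 5 and 9 to the high-call profile thus rested on these chromosomes.

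Genes were read in windows reaching 1 Mb to each side, because single genes have few probes. Chromosome 3 holds 7 genes of the lists used here, among them Pik3ca itself, Nras, a RAS family GTPase, Fbxw7, which marks growth regulators for degradation, and Foxo1, a transcription factor held back by AKT. In tumour 5 all 7 windows lay at least 0.1 above 0, from 0.14 to 0.25, where 98.7% of the 1 Mb bins of the chromosome did. In tumour 9, 5 of the 7 did beside 62.4% of the bins, and in tumour 10 none did beside 1.91%. In tumour 11, 3 of the 7 lay at least 0.1 below 0, beside 19.1% of the bins. The Pik3ca window (132 probes) read 0.25 in tumour 5, 0.21 in tumour 9, 0.02 in tumour 10 and -0.10 in tumour 11, against 0.17 to 0.43 in the high-call tumours. With tumour 11 turned its window would read above 0. Tumours 5 and 9 lay inside the high-call range for this window and tumours 10 and 11 below it. The 4 probes inside Pik3ca read 0.24 (SE 0.09), 0.01 (SE 0.23), 0.09 (SE 0.03) and 0.03 (SE 0.26) in the same order, so in tumours 9 and 11 the gene alone was too imprecise to show an offset of the size of its window.

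In tumour 9 the 10 list genes on chromosome 4 all had windows at least 0.1 below 0, from -0.26 to -0.11, where 75% of the 1 Mb bins of the chromosome did. They include the cell cycle inhibitor Cdkn2a (-0.17), the kinase Mtor (-0.16), the PI3K subunits Pik3cd and Pik3r3, and Arid1a (-0.18), a subunit of a chromatin remodelling complex. None of the 10 reached 0.1 in either direction in tumours 5 or 10. In tumour 11, 4 did upwards beside 35.5% of the bins of the chromosome, or downwards with it turned. These counts follow from the chromosome means and are not particular to the genes. On chromosome 18 of tumour 9, 3 of 5 windows lay at least 0.1 above 0, where 51.1% of its bins did, among them that of Smad4 (0.18), a mediator of TGF-beta signalling, while that of Apc, a brake on WNT signalling, read 0.002. The 5 list genes on chromosome 15, which include the luminal keratins Krt8 and Krt18, the prolactin receptor Prlr and Rictor, a subunit of mTOR complex 2, had windows of 0.05 to 0.11 in tumour 5 and of -0.02 to -0.004 in tumour 10. In tumour 9 they ran from -0.09 to 0.04, below the chromosome mean of 0.07.

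By their own probes, the list genes moved about as often as all genes. Of 185 genes on 7 lists, 123 had at least 3 probes. In tumour 5, 5 of them lay at least 0.2 above 0 and 8 at least 0.2 below 0, where 5.66% and 8.02% of all 9377 genes with 3 probes did. In tumour 9 the counts were 12 up and 32 down, beside 15% and 25.9% of all genes. In tumour 10 they were 0 up and 1 down, beside 0.928% and 2.02%. In tumour 11 they were 20 up and 17 down, beside 22% and 18.1%. The shares of the lists are near those of all genes in each tumour, so nothing is read from them about the lists. The single low gene of tumour 10 was Tnfsf11, the ligand RANKL that signals in mammary epithelium, at -0.25 (SE 0.11, 3 probes). It read -0.29 (SE 0.31) in tumour 5 and -0.52 (SE 0.44) in tumour 9, with standard errors near the values themselves, and 0.10 (SE 0.35) in tumour 11.

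The strong focal gains of the high-call tumours were sought at their genes. Met, the receptor of hepatocyte growth factor, read -0.01 (SE 0.03, 12 probes) in tumour 5, 0.23 (SE 0.15) in tumour 9, 0.07 (SE 0.04) in tumour 10 and -0.27 (SE 0.10) in tumour 11, against 0.15 to 5.30 in the high-call tumours. The median high-call value was 2.04, far above any low-call tumour, tumour 11 turned (0.27) included. Yap1, a transcriptional coactivator of the Hippo pathway, read 0.11 (SE 0.05), 0.20 (SE 0.16), 0.001 (SE 0.06) and 0.06 (SE 0.13), against a highest high-call value of 1.47 in tumour 3. Nf1, a RAS inhibitor, read -0.14 (SE 0.05, 24 probes), -0.27 (SE 0.14), 0.06 (SE 0.03) and 0.09 (SE 0.12), against a lowest high-call value of -0.98 in tumour 1. None of the low-call tumours came near the focal changes of tumours 1, 3, 6, 7 and 8 at these genes.

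The 18 fragile-site genes with at least 3 probes span many probes each, so their means are read more firmly. No mean lay 0.2 or more from 0 in any low-call tumour. A mean over a whole gene can miss a loss in a short stretch. Dmd, one of the 18, had a mean of 0.04 in tumour 10 despite the loss inside it described below. Fhit, the gene of a common fragile site, read 0.0001 (SE 0.02, 165 probes) in tumour 5, 0.07 (SE 0.04) in tumour 9, 0.06 (SE 0.01) in tumour 10 and -0.11 (SE 0.04) in tumour 11. In the labelled direction each lay inside the high-call range of -0.12 to 0.08. With tumour 11 turned its value would be 0.11, above that range.

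The one call of tumour 10 was a short loss on chromosome X inside Dmd, the very long gene of dystrophin. It ran over 11 probes at chrX:81186361-81262547 of build mm9 (0.0762 Mb), within the 234 probes named after Dmd from 80206010 to 82449581. Whether the span holds exons was not analysed here. The probes on each side of both edges, 60 bases long except for the last probe of the loss with 58, mark its limits and are printed 5′ to 3′ as on the array with no base singled out.
last probe before the loss (chrX:81173662-81173721): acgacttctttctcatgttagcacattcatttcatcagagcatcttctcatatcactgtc
first probe of the loss (chrX:81186361-81186420): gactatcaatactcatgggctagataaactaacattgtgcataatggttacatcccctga
last probe of the loss (chrX:81262490-81262547): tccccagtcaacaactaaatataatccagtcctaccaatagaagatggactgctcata
first probe after the loss (chrX:81270800-81270859): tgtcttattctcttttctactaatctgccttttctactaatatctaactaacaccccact
In tumour 10 the ratio fell from 0.40 to -0.37 at the first edge and rose from -0.81 to 0.12 at the second.

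The 11 probes of the loss read from -0.88 to -0.37 in tumour 10, with a mean of -0.67 (SD 0.19). The 5 probes on each side had a mean of 0.16. Tumour 10 was the lowest of the 11 tumours at 9 of the 11 probes, and at the other 2 the lowest was a noisy array, tumour 9 or 11. The same 11 probes averaged 0.008 in tumour 5, 0.06 in tumour 9, -0.10 in tumour 11 and -0.20 to 0.08 in the high-call tumours. The mean of all Dmd probes in tumour 10 was 0.04, so the loss is confined to a short stretch among the probes of this gene. Of the 10 flanking probes, tumour 10 was the highest of all tumours at 4.

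**Figure D5:**
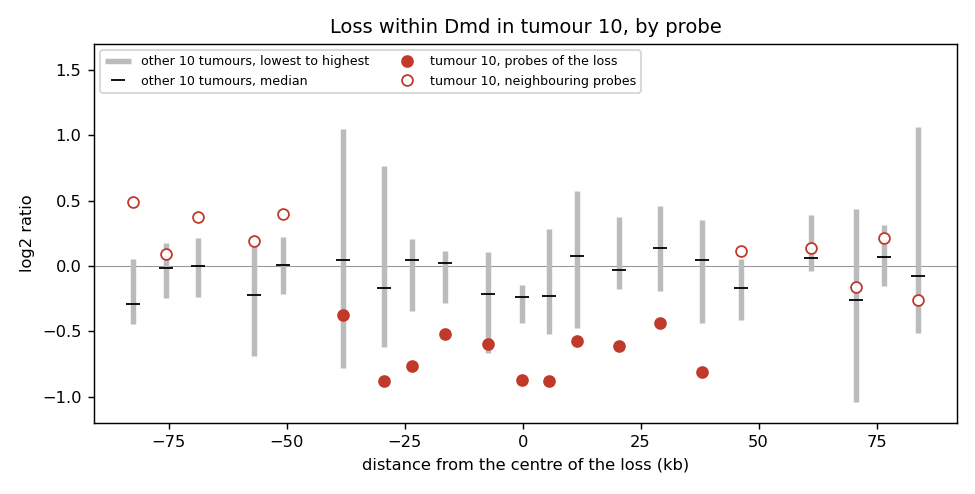
Log2 ratio of single probes in tumour 10 against the distance from the centre of the loss in kb (filled points, the 11 probes of the loss; open points, 5 neighbours on each side), with the range (grey bars) and median (black dashes) of the other 10 tumours. The filled points lie between -0.88 and -0.37, and the open points between -0.26 and 0.49.

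Tumour 11 had 9 calls, 6 gains and 3 losses. Of these 8 were autosomal, none longer than 2.22 Mb, and the other was a gain over 12.6 Mb of chromosome X (412 probes, mean 0.29). The autosomal calls depend on the segmentation penalty. The called share of tumour 11 fell from 0.313% to 0.0279% at 1.5 times the penalty and to 0% at 3 times. At the probes of the 9 calls the ratio had the opposite sign in tumour 5 at 9 of 9 calls, in tumours 4 and 9 at 8 of 9 and in tumour 10 at 5 of 9. The strongest gain, over Tesk2, Nasp and other genes on chromosome 4 (chr4:116190614-116460651, 28 probes), read 0.69 in tumour 11, -0.64 in tumour 9, -0.40 in tumour 4 and -0.18 in tumour 5. The exception in tumours 4 and 9 was the strongest loss, over Skint3, Skint4 and Skint9 (chr4:111742887-112073844, 27 probes), immunoglobulin-like genes of skin and thymus epithelium. It read -0.72 in tumour 11, -0.19 in tumour 9, -0.08 in tumour 4, 0.002 in tumour 5 and 0.09 in tumour 10, and among the high-call tumours -1.02 in tumour 8 and 0.31 in tumour 7. With tumour 11 turned, its loss would be a gain of the same size.

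Chromosome X was not used by the rule and could be tested. The low-call tumours read -0.003 (tumour 5), -0.06 (9), 0.03 (10) and 0.11 (11), and the high-call tumours ran from -0.12 over a median of -0.05 to 0.03. The ranges overlapped. The mean was 0.02 ± 0.07 (SD, n = 4) against -0.05 ± 0.06 (SD, n = 7), a difference of 0.07 that did not pass (exact two-sided permutation p = 0.133, with 0.00303 the smallest p possible, and 0.278 within slides). With tumour 11 turned the difference was 0.01 (exact permutation p = 0.755). With the pattern of tumour 11 removed from the other arrays, a treatment added after the data were seen, it was 0.09 (exact permutation p = 0.0242). That removal left tumour 11 itself unchanged and carried its chromosome X offset into the other arrays, taking tumour 9 from -0.06 to 0.02. No conclusion is drawn from this p.

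Lymphocytes that rearranged their antigen receptor genes lack DNA there, so these loci stand for lymphocytes in bulk DNA, whose cell types cannot be checked by expression markers here. Each locus was read relative to 5 Mb on each side. Igh, the heavy chain locus (177 probes), read 0.08 in tumour 5, 0.002 in tumour 9, 0.07 in tumour 10 and 0.05 in tumour 11, with a mean of 0.05 ± 0.03 (SD, n = 4) against 0.05 ± 0.05 (SD, n = 7) in the high-call tumours. Tcra and Tcrd, the alpha and delta chain loci of the T cell receptor (94 probes), read 0.03, 0.03, 0.05 and 0.03, against -0.04 to 0.06. In the labelled direction neither of these loci lay below its surroundings in a low-call tumour, and with tumour 11 turned it would read -0.05 at Igh and -0.03 at Tcra and Tcrd. At the other 4 loci, values below 0 were those of Igk in tumours 9 (-0.08) and 10 (-0.009), Igl in tumour 9 (-0.03), Tcrb in tumour 11 (-0.04) and Tcrg in tumour 9 (-0.01). None of the 6 loci passed in the comparison of the sets (exact two-sided permutation p adjusted over the 6 loci, 0.755 to 0.933). All 6 lie on autosomes, whose ratios defined the sets, so these tests are a description and not independent of the rule.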

How the data were processed

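Each of the 11 arrays gave, per spot and channel, an intensity that the authors' software had background-subtracted and dye-normalized, per the file headers, with Agilent Feature Extraction 10.5.1.1 (slides 1 and 3) or 11.0.1.1 (slide 2, tumours 4, 7, 9 and 11) on build mm9. The deposited LogRatio column is a log10 ratio. The authors' value table holds the same ratios as log2, not centred, with column medians from -0.0490 to 0.0213. Partek is named in the submitters' processing notes without a version.

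The log2 of red over green processed intensity was averaged per probe over 174305 spots without outlier spots, none of them saturated, and centred on the array median, giving 170305 probes (161460 autosomal). Segments came from optimal partitioning, each further segment costing 2 noise variances per unit of ln(probe number), with at least 5 probes a segment. Sets were compared with exact two-sided permutation tests over tumours, and within slides, with Benjamini-Hochberg adjustment within a family. Autosomal ratios defined the sets, so the called shares, bin spreads and chromosome means of autosomes were not tested. The noise SD and the receptor loci were tested but also come from autosomal probes. Alternatives were normexp background correction (limma 3.58.1, offset 50), removal of dim spots, the value table, probe GC fits, mode centring, tumour 11 turned, bins of 0.5 and 2 Mb, medians over probes, other heights and penalties, a flank of 10 Mb, slides as blocks, and leaving out tumours. The scripts (Python 3.11.15, numpy 2.4.6) were tested on simulated data.

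The tumour sets, gene lists and tests were chosen with earlier results of these data known. Genes named are Pik3ca, Met, Yap1, Birc2 and Nf1, of each list the 3 highest and 3 lowest over the low-call tumours with at least 3 probes, up to 40 names, and up to 5 genes per short call. Genes on shifted chromosomes were named after their values were seen. One item is not reported here.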

Additional observations from a re-analysis of the deposited data

Results flagged for a closer look

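With gaps compared to the range of each set, 2 of 60 checks stood out (3.33%), and chance alone gives about 1 in 20. Among the low-call tumours, the mean of chromosome 17 in tumour 11 was 0.039, with the next highest at -0.006. Among the high-call tumours, dim spots, not well above background in one channel or both, made up 8.14% in tumour 2, with the next highest at 3.04%.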

How the results depend on the processing

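The called share of tumour 5 was 8.18% with normexp and 0% without dim spots, in the value table, with mode centring, at a height of 0.3 and at penalties of 1.5 and 3 times. That of the high-call tumour 4 was 7.62% with normexp, below tumour 5, and 6.47% without dim spots. At a height of 0.3 it was 0.151%, below tumour 11 at 0.313%, and at 0.1 it was 16.1%, below tumour 9. At a height of 0.15 the share was 8.12% in tumour 5 and 6.18% in tumour 9, and at 0.1 it was 11.0%, 17.9% and 5.97% in tumours 5, 9 and 11. In tumour 11 it was 0.0279% at a penalty of 1.5 times and 0% at 3 times. The number of shifts was 22 at 0.03, 5 at 0.1, 3 without tumours 9 and 11, and 4 to 9 when 1 low-call tumour was left out. Chromosome 4 of tumour 11 was -0.064 when turned. The chromosome X difference was 0.092 with the pattern of tumour 11 removed (exact permutation p = 0.0242). That removal carries the chromosome X offset of tumour 11 into the other arrays. The list genes gave 37 values up and 58 down over the 4 tumours, 19 and 28 at a height of 0.3, 22 and 36 with at least 5 probes, 5 and 9 without tumours 9 and 11, and 17 to 37 and 26 to 57 with 1 tumour left out.

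The difference in dim spots turned to -1.80 percentage points without tumours 9 and 11, and ranged from -0.822 to 3.43 with 1 tumour left out. That in outlier spots ranged from -0.0274 to 0.0118. Differences at the receptor loci were near 0 and changed sign without passing. Igh read 0.042 with normexp, 0.023 without dim spots, 0.0028 in the value table, 0.019 without tumours 9 and 11, and -0.011 to 0.014 with 1 left out. Igk and Igl read -0.069 and -0.057 with tumour 11 turned, and -0.016 to 0.091 and -0.0019 to 0.067 with 1 left out. Tcra and Tcrd read -0.00055 with tumour 11 turned and -0.0023 within slides. Tcrb read 0.017 with a flank of 10 Mb, 0.064 with normexp and 0.021 without dim spots. Tcrg read -0.012 without dim spots, -0.077 with tumour 11 turned, -0.0084 without tumours 9 and 11, and -0.025 to 0.043 with 1 left out. The cause of these changes was not tested.

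Under the settings run, the mean spread and the low-call means of chromosomes 3, 4, 7, 15, 18 and 19 moved by less than the SD between tumours. Of the 11 arrays, tumour 9 had the largest share of dim spots (12.8%), a limit on its values.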

Other observations

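Birc2, an inhibitor of apoptosis beside Yap1 on chromosome 9, has 2 probes on the array. It read 0.13 (SE 0.18) in tumour 5, 0.31 (SE 0.36) in tumour 9, 0.05 (SE 0.05) in tumour 10 and -0.47 (SE 0.22) in tumour 11, against 1.476 in the high-call tumour 3.

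Kit, the receptor of stem cell factor, read 0.03 (SE 0.09, 8 probes) in tumour 5, 0.24 (SE 0.22) in tumour 9, -0.01 (SE 0.06) in tumour 10 and 0.13 (SE 0.19) in tumour 11. Pik3r1, the regulatory subunit that restrains p110 alpha, had own probes at -0.20 (SE 0.06, 8 probes), -0.36 (SE 0.19), -0.17 (SE 0.04) and -0.04 (SE 0.18), and from -0.39 to 0.29 in the high-call tumours. Its window of 1 Mb to each side read -0.02, 0.004, 0.02 and -0.11 in the same tumours, nearer to 0 than the gene in all but tumour 11. Turning tumour 11 puts its gene value at 0.04 and its window at 0.11.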
